A study of Mus musculus with 8 samples.

Results

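The 8 livers fell into 2 sets of 4 mice that crossed the diets equally. Side A held CD mice 1 and 2 with PD mice 3 and 4, and side B held CD mice 3 and 4 with PD mice 1 and 2, so all 8 mice of the 8 in the series belong to the split. The sides were chosen by the first principal component of the log2 expression values of all 45037 probe sets on these same arrays. Every difference between the sides in these probe sets is therefore a description of the livers that chose it and has no p-value. Only control probe sets, which did not enter the choice, were tested between the sides.

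The mice were male KK-Ay mice, an obese and diabetic strain that carries the yellow agouti allele, and all 8 carried it. The labels give an age of 14 weeks. CD mice ate the AIN-93G control diet for 8 weeks and PD mice ate the same diet with 1 g/kg of persimmon peel (PP) extract, each mouse alone in its cage. Livers were taken after a short fast under pentobarbital, and the study picked for arrays the livers of mice whose plasma ketone bodies lay close to their group mean. The RNA came from whole liver, in which fewer cells of a type and less RNA per cell cannot be told apart.

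The liver answers inflammatory signals with the acute-phase response, in which hepatocytes raise the secretion of proteins such as serum amyloid A under the control of the transcription factors STAT3, C/EBP and NF-kB. Kupffer cells, the resident macrophages of the liver, are a main source of those signals. The circadian clock and the feeding state drive other large programs of hepatic transcription, among them lipid synthesis, fatty acid oxidation and bile acid synthesis.

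The promoters of 4 of the genes that differed most between the sides are shown because all 4 are acute-phase genes that were lower in side A, although Socs3 did not follow the others from mouse to mouse. Each is the 250 bases before the RefSeq transcription start in GRCm38.p6, written 5′ to 3′ on the strand of the gene. Capitals mark matches on either strand to a STAT motif (TTCNNNGAA) or a C/EBP motif (TTGCNNAA). The NF-kB consensus was searched on the strand of the gene only. No 2 matches overlapped. Saa1 lies at chr7:46742981-46743230 on the minus strand, Saa2 at chr7:46751583-46751832 on the plus strand, Lcn2 at chr2:32387740-32387989 on the minus strand and Socs3 at chr11:117969367-117969616 on the minus strand.
Saa1: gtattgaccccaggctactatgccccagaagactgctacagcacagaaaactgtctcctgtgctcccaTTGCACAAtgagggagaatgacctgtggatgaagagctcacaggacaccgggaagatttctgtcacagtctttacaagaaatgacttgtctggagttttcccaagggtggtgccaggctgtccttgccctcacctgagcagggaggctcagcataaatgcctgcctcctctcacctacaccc
Saa2: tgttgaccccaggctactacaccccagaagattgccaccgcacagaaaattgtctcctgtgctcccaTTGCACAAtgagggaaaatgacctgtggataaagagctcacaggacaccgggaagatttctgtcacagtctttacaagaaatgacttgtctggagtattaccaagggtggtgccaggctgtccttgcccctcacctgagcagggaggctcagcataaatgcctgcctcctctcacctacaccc
Lcn2: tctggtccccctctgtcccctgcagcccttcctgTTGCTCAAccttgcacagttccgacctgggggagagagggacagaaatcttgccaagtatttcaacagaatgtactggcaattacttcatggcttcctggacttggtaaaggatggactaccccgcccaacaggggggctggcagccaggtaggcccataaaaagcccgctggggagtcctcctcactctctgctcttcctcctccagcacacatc
Socs3: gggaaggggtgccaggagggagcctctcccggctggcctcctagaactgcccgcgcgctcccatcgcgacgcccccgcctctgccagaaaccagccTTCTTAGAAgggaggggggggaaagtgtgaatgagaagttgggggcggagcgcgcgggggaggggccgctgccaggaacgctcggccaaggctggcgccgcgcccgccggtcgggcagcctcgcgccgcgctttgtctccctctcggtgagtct
The Saa1, Saa2 and Lcn2 windows each held 1 C/EBP match and the Socs3 window held 1 STAT match. None held an NF-kB match on the strand of the gene, and the other strand was not searched. Of 32851 promoter windows of this length, 9.56% held the C/EBP motif and 7.02% the STAT motif on either strand. The NF-kB consensus was held by 5.0% on the strand of the gene. A match is a stretch of letters and not a measured binding site.

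On the first principal component, which carried 23.7% of the variance, the side A mice scored 15.8 (CD mouse 1), 12.9 (CD mouse 2), 4.44 (PD mouse 3) and 9.36 (PD mouse 4). The side B mice scored -7.76 (CD mouse 3), -11.3 (CD mouse 4), -9.58 (PD mouse 1) and -13.9 (PD mouse 2). PD mouse 3 and CD mouse 3 were the mice nearest to the border. The same sides also separated on the first component after quantile normalization (22.7% of the variance), after centring each array on its median (23.7%), and in the brighter (23.3%) and dimmer (25.6%) probe sets alone. The second component carried 17.6% of the variance and set CD mouse 4 (-22.8) apart from the other 7 mice, which lay between -5.27 and 7.85. The median log2 value of the arrays moved with the split, from 7.131 to 7.159 in side A and from 7.095 to 7.130 in side B, and its part in the differences was not tested.

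**Figure D1:**
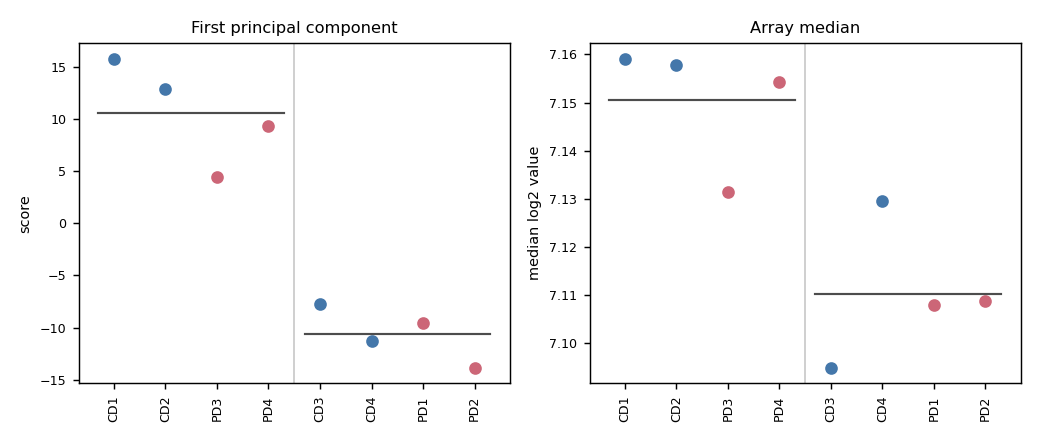
Left, score of each mouse on the first principal component of 45037 probe sets. Right, median log2 value of each array. Side A is left of the vertical line and side B right of it, blue points are CD mice, red points are PD mice, and horizontal lines are means of 4 mice. All side A scores are above 0 and all side B scores below it, and every side A array median is above every side B one.

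A probe set was called where its sides differed by at least 0.5 on the log2 scale, with diet as a covariate, and both side A mice of each diet lay on the same side of both side B mice of that diet. By this rule 69 probe sets were higher in side A, which is 0.153% of those measured, and 21 were lower, which is 0.0466%. The rule used these same values, so the counts describe the size of the split. Of the 69 probe sets higher in side A, only 4 reached a difference of 1.0, compared with 11 of the 21 lower in side A. Serum amyloid A and other acute-phase genes led the probe sets lower in side A. Those higher in side A included a glutathione transferase, carbonic anhydrase 3 and Angptl8, but no single program of the lists examined.

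Saa2, which encodes a serum amyloid A protein secreted by hepatocytes, had the largest difference. Its log2 values were 8.91, 8.03, 8.57 and 8.63 in CD mice 1 and 2 and PD mice 3 and 4 of side A, compared with 9.88, 13.95, 8.87 and 10.16 in CD mice 3 and 4 and PD mice 1 and 2 of side B. Side A was lower by a log2 difference of -2.18 ± 1.13 (SE, n = 4 and 4 mice). CD mouse 4 was far above all others and PD mouse 1 lay just below CD mouse 1, so the 4 mice of each side overlapped although they separated within each diet. Without CD mouse 4 the difference was -1.11.

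Saa1, its neighbour and close relative, was 11.08, 10.16, 10.61 and 10.58 in side A and 11.95, 14.33, 10.69 and 12.15 in side B, in the same order of mice. The log2 difference was -1.67 ± 0.76 (SE), and -1.03 without CD mouse 4. A second Saa1 probe set differed by -1.61. PD mouse 1 again lay inside the range of side A. Saa1 and Saa2 are nearly identical in sequence and their probe sets can hybridize with transcripts of both, so the genes are not independent measurements.

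Lcn2 encodes lipocalin 2, an iron-scavenging defence protein. Its values were 8.16, 7.57, 7.96 and 8.16 in side A and 9.05, 12.44, 8.61 and 9.95 in side B, with no overlap, and the log2 difference was -2.05 ± 0.91 (SE). Without CD mouse 4 it was -1.21. In all 3 genes CD mouse 4 was the highest liver and PD mouse 1 the lowest of side B.

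Fgl1 and Socs3 rested less on CD mouse 4. Fgl1, a hepatocyte-secreted protein related to fibrinogen, was 11.21, 10.90, 10.91 and 10.79 in side A and 11.94, 12.92, 12.06 and 12.20 in side B. The log2 difference of Fgl1 was -1.32 ± 0.23 (SE), and it ranged from -1.51 to -1.12 as each mouse was left out in turn. Socs3, the feedback inhibitor of STAT3 signalling, was 7.72, 8.15, 7.42 and 7.66 in side A and 9.39, 8.55, 9.47 and 8.40 in side B, a difference of -1.21 ± 0.33 (SE). The order of the mice differed between these genes, since Socs3 was highest in PD mouse 1 and CD mouse 3 and Fgl1 in CD mouse 4. A second Socs3 probe set differed by -1.24 and the dimmest one by -0.25, which was not called. Apcs, which encodes serum amyloid P, was called with a difference of -0.53 ± 0.23 (SE) and lost its call without CD mouse 2, CD mouse 4 or PD mouse 2.

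**Figure D2:**
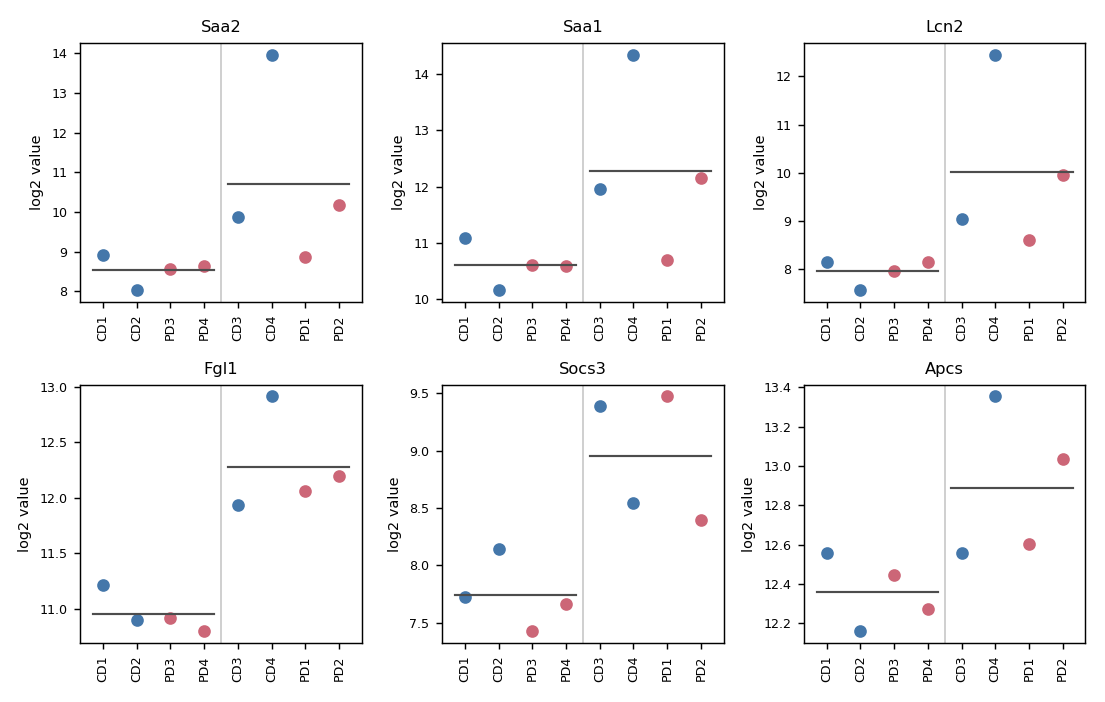
Log2 values of 6 genes lower in side A, one point per mouse, with side A left of the vertical line, blue points for CD mice, red points for PD mice and horizontal lines at the mean of 4 mice. CD mouse 4 is the highest liver for Saa2, Saa1, Lcn2, Fgl1 and Apcs, and Fgl1, Socs3, Lcn2 and Apcs show no overlap of the sides, with CD mice 1 and 3 touching at 12.56 for Apcs.

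Over the 30 measured genes of the acute-phase list, 9 had both side A mice below both side B mice in each diet, whatever the size of the difference, and none had the reverse. Over all 18194 genes, each represented by its brightest probe set, 3.13% were lower in side A in this way and 9.09% higher, and 58.4% had a higher mean in side A. The median difference of the list was -0.22, compared with 0.02 over all genes. Besides Saa1, Saa2, Lcn2, Socs3 and Apcs, the 9 genes were Orm1, Itih3, Itih4 and Stat3, with differences from -0.36 to -0.23. Orm2, encoding an orosomucoid, differed by -1.27 but overlapped within the diets. The fibrinogen genes Fga, Fgb and Fgg, at -0.06, -0.05 and -0.06, hardly differed, and Hamp, encoding the iron hormone hepcidin, was 0.50 higher in side A with overlap. Without CD mouse 4 the list median was -0.18 and 12 of the 30 genes separated, compared with 5.28% of all genes, since leaving out any mouse makes separation within a diet easier. As each mouse was left out in turn 9 to 13 of the 30 separated. The list was assembled with earlier results of these data known.

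Foxq1, Phlda1 and Nrp1 were also lower in side A. Foxq1, a forkhead transcription factor, was 6.50 to 7.01 in side A and 7.35 to 8.73 in side B, a difference of -1.14 ± 0.35 (SE). Phlda1, a pleckstrin homology-like domain gene, was 10.29 to 11.19 in side A and 11.38 to 11.93 in side B, a difference of -1.04 ± 0.25 (SE). Nrp1, a co-receptor for semaphorins and vascular endothelial growth factor, differed by -0.56 ± 0.16 (SE), as did Amn1 by -0.56 ± 0.12 (SE). Efcab9 and Itpa were called because of 1 liver, CD mouse 4, with values of 10.54 and 8.96 against at most 7.04 and 6.68 in the other mice. Without CD mouse 4 their differences were -0.30 and -0.08 and neither was called.

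Markers of Kupffer cells and macrophages were lower in side A in 13 of 14 genes, with a list median of -0.26, whereas 58.4% of all genes were higher. Of the 14 genes, 4 separated within both diets in that direction, namely C1qc, C1qa, Vsig4 and Cd68, compared with 3.13% of all genes. The count was 8 without PD mouse 2, when 5.84% of all genes separated. It was 4 without CD mouse 1, 2 or 3, when 4.91% to 5.66% of all genes separated. The count also rose without PD mouse 1 or PD mouse 4, where the share of all genes is not given here. C1qc, a chain of complement C1q made by macrophages, was 8.65, 8.58, 9.10 and 9.04 in side A and 9.47, 9.26, 9.19 and 9.16 in side B, without overlap. Vsig4, a complement receptor of Kupffer cells, differed by -0.30 and Cd68, a lysosomal macrophage protein, by -0.24. The list mean of CD mice 1 and 2 was 0.21 and 0.27 below the mean of all mice, whereas the PD mice of both sides lay between -0.02 and 0.07, so most of this difference lay among the CD mice. As each mouse was left out the list median ranged from -0.32 to -0.20. Marco and Itgam, at 0.02 and -0.01, did not follow the other markers. The part of macrophage number in the acute-phase difference was not tested.

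Antigen presentation genes had a median difference of -0.12, with 13 of 17 lower in side A, whereas 58.4% of all genes were higher. Of the 17, 2 separated within both diets, Nlrc5 and Psmb8, compared with 3.13% of all genes. Without PD mouse 2, 6 separated, compared with 5.84% of all genes. Without CD mouse 1, 2 or 3 the count stayed at 2, when 4.91% to 5.66% of all genes separated. The count also rose without PD mouse 3 or PD mouse 1, where the share of all genes is not given here. Leaving out any mouse makes separation within a diet easier. Cd74, the invariant chain of class II molecules, was 8.00 and 7.85 in CD mice 1 and 2 and between 8.27 and 8.77 in the other 6. CD mice 1 and 2 were thus the low livers, as for the macrophage markers. In the interferon list 21 of 27 genes were lower in side A, with a median of -0.08, and only Stat2 separated, which is near the 3.13% of all genes. The interferon count rested on PD mouse 2, without which 10 of 27 separated, compared with 5.84% of all genes. Chemokine and cytokine signalling genes had a median of 0.00. Cxcl1, a chemokine for neutrophils, was 8.82 to 9.71 in side A and 9.12 to 11.31 in side B, and its difference of -0.66 ± 0.51 (SE) was not called.

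**Figure D3:**
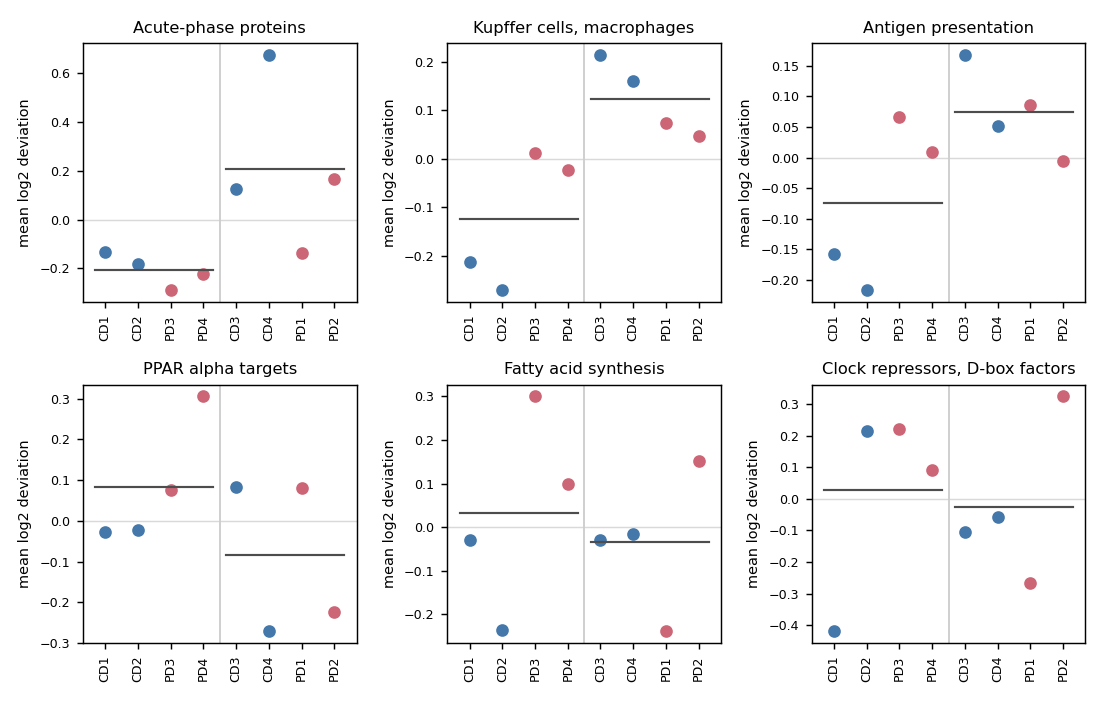
Mean over the members of 6 gene lists of each mouse's log2 deviation from the 8-mouse mean, with side A left of the vertical line, blue points for CD mice, red points for PD mice and lines at the mean of 4 mice. The macrophage mean is lowest in CD mice 1 and 2, the acute-phase mean is highest in CD mouse 4 at 0.67, and the lipid and clock lists overlap between the sides.

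Among genes higher in side A, Gsta2 was the brightest. Gsta2, a glutathione transferase of xenobiotic detoxification, was 11.65, 12.03, 11.32 and 11.19 in side A and 10.74, 10.83, 10.75 and 10.38 in side B. The log2 difference was 0.87 ± 0.15 (SE) with no overlap, and it ranged from 0.76 to 0.98 as each mouse was left out. The only other member of the list of 24 genes of CAR and PXR metabolism to approach it was Cyp2b9, at 0.51 with overlap. In that list 21 genes were higher in side A, compared with 58.4% of all genes, with a median of 0.11. Gsta2 alone separated within both diets, a smaller share than the 9.09% of all genes. The list median was 0.03 without CD mouse 4 and 0.18 without PD mouse 3. After centring each array on its median 15 were higher, compared with 38.2% of all genes, with a median of 0.07. In that setting 1 of the 24 separated, a share near the 4.12% of all genes.

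Car3 encodes carbonic anhydrase 3, an abundant cytosolic enzyme of liver and fat. One probe set was 10.32, 10.59, 10.97 and 11.09 in side A and 9.93, 10.02, 10.02 and 8.97 in side B, a difference of 1.01 ± 0.34 (SE), and a second differed by 1.03. The 2 brightest Car3 probe sets, with mean values of 13.99 and 12.87, differed by 0.07 and 0.22 and were not called. The 4 probe sets of the gene thus gave unlike differences, the smaller ones at the brighter probe sets. Angptl8, a secreted regulator of lipoprotein lipase that is induced by feeding and insulin, was 10.20, 10.09, 9.66 and 9.55 in side A and 8.95, 9.74, 9.19 and 8.51 in side B. The difference in Angptl8 was 0.78 ± 0.24 (SE), with separation within each diet and overlap across diets. Hspa1b, a heat shock protein, was 9.33 to 9.63 in side A and 8.51 to 9.25 in side B, a difference of 0.64 ± 0.18 (SE), although its other 2 probe sets differed by 0.21 and -0.02.

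The remaining genes of large difference had mean log2 values between 6.37 and 8.03, compared with a median of 7.13 over all probe sets. Ccn3, a matricellular growth regulator, was 6.89, 7.39, 6.38 and 6.95 in side A and 5.97, 6.07, 5.68 and 5.66 in side B, a difference of 1.06 ± 0.17 (SE). Ibtk, Rhebl1, Ncs1, Sypl, Ttn, Edn3, Col23a1 and Pcnx2 differed by 0.77 to 0.97, with side A values between 7.15 and 8.69. Ttn encodes the giant muscle protein titin, and all 8 genes of the muscle marker list were also higher in side A, with a median of 0.11. This was not particular to muscle. Markers of pancreas were higher in 6 of 7 genes, of gallbladder and gut in 6 of 7, and of adipose tissue in 5 of 6. Their medians were 0.11, 0.11 and 0.07. The share of all genes higher in side A was 58.4%. The median difference by decile of brightness over all probe sets was 0.01 in the dimmest, 0.04 in the fifth and 0.02, 0.01, -0.01 and -0.01 in the 4 brightest. After centring on array medians the muscle median was 0.07, with 7 of 8 genes higher, compared with 38.2% of all genes.

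**Figure D4:**
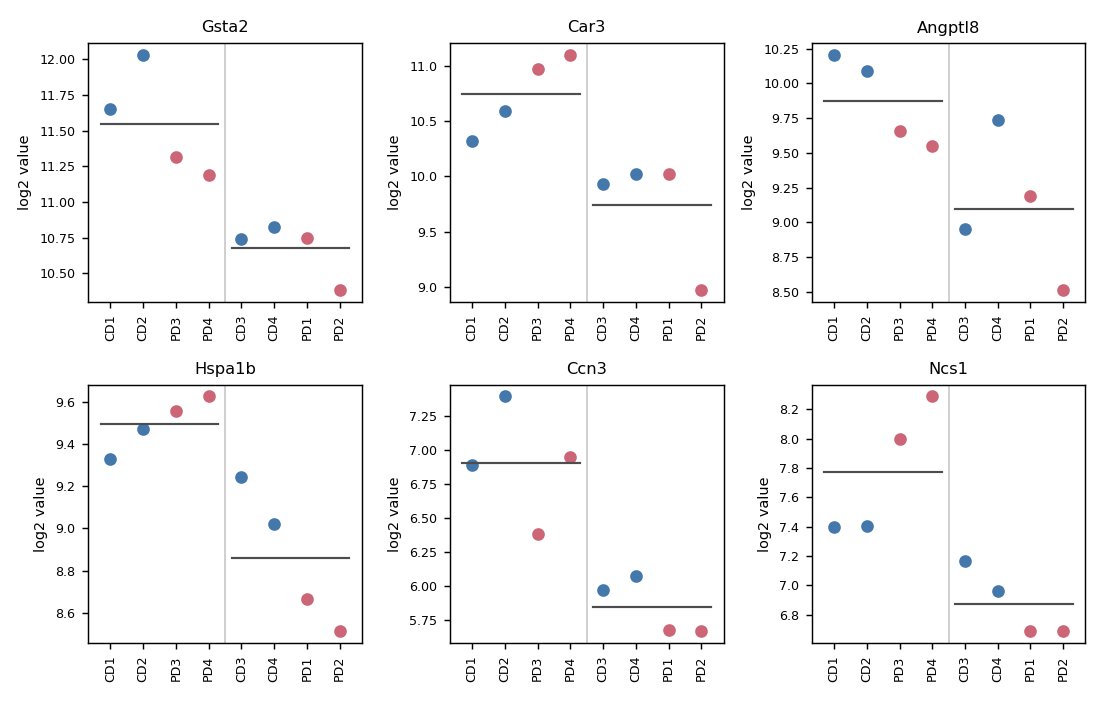
Log2 values of 6 genes higher in side A, one point per mouse, with side A left of the vertical line, blue points for CD mice, red points for PD mice and lines at the mean of 4 mice. Gsta2, Car3, Hspa1b, Ccn3 and Ncs1 show no overlap of the sides, and Angptl8 overlaps through CD mouse 4 at 9.74.

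No core clock gene or listed clock output was called. In a list of 12 measured rhythm genes driven by temperature and serum, Hspa1b, described above, was called. It alone separated within both diets, a share near the 9.09% of all genes. Dbp, a clock output transcription factor of large daily amplitude, was 9.20 in CD mouse 1 and 11.64, 11.85 and 11.73 in the other side A mice, compared with 10.98, 11.53, 10.94 and 11.96 in side B. Its difference was -0.25 ± 0.66 (SE). CD mouse 1 was likewise lowest for Tef (9.60, others 10.05 to 10.57) and Nr1d2 (10.65, others 11.09 to 11.40) and highest for Arntl (7.95, others 6.74 to 7.50), Nfil3 (9.19, others 7.80 to 8.53) and Cry1 (8.41, others 7.12 to 7.87). CD mouse 1 stood apart from the mice of its own side more than the sides stood apart from each other. None of the 9 measured activators and 14 measured repressors and D-box factors separated within both diets, with median differences of -0.01 and 0.07. As each mouse was left out the median of the latter ranged from -0.06 without PD mouse 1 to 0.20 without CD mouse 1. Without CD mouse 1, 2 of the 14 separated with side A higher, a share near the 13.1% of all genes in that setting. Per1, Per2, Per3, Npas2, Clock, Nr1d1 and Ciart differed by -0.06 to 0.16. Of the 20 outputs listed with the clock, 2 separated within both diets, a share near the 9.09% of all genes, namely Nampt, the rate-limiting enzyme of NAD salvage, at 0.26, and Lonrf3 at 0.41.

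**Figure D5:**
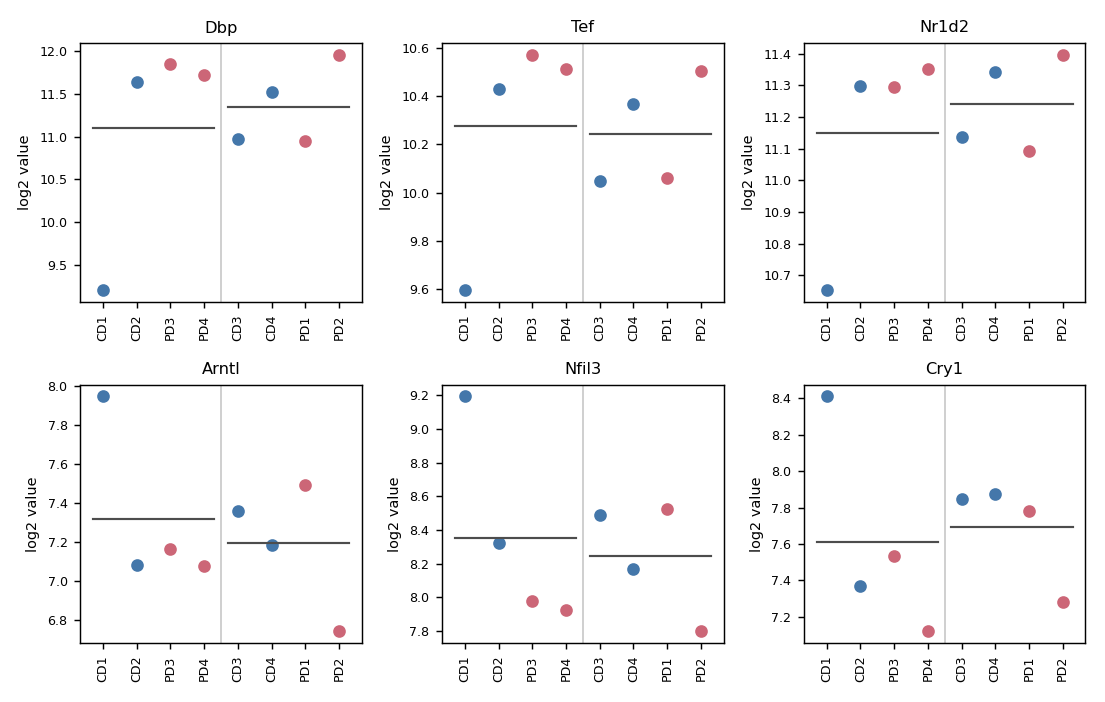
Log2 values of 6 clock genes, one point per mouse, with side A left of the vertical line, blue points for CD mice, red points for PD mice and lines at the mean of 4 mice. CD mouse 1 is the lowest liver for Dbp, Tef and Nr1d2 and the highest for Arntl, Nfil3 and Cry1, and the other mice of both sides overlap.

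The fasting genes of gluconeogenesis did not separate between the sides. Pck1 and G6pc, enzymes of gluconeogenesis, differed by -0.04 ± 0.12 and 0.29 ± 0.25 (SE), and Igfbp1, an insulin-repressed secreted protein, by 0.45 ± 0.44 (SE). None of the 18 measured genes of gluconeogenesis and fasting separated, and the list median was -0.02. In the other feeding lists 1 of 12 glucose and ChREBP targets, Fgf21, 1 of 14 insulin-sensitive and growth hormone genes, Cyp4a12a, and 1 of 16 glucocorticoid targets, Lcn2, separated within both diets. Over all genes 9.09% separated with side A higher, as Fgf21 and Cyp4a12a did, and 3.13% with side A lower, as Lcn2 did. Angptl8, described above, was a feeding-responsive gene that was called. Ppargc1a, a coactivator of fasting metabolism, differed by -0.03, and Cdkn1a and Rgs16, a cell cycle inhibitor and a regulator of G protein signalling, by -0.13 and 0.29 with overlap.

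No member of the lipid lists was called. Fasn, the fatty acid synthase, was 11.61, 11.08, 12.16 and 11.92 in side A and 11.75, 11.79, 11.08 and 12.10 in side B, a difference of 0.01 ± 0.33 (SE). Srebf1, Scd1 and Thrsp, a lipogenic regulator, a desaturase and an insulin-responsive lipogenic protein, differed by -0.08, 0.04 and 0.27. None of 20 fatty acid synthesis genes separated within both diets, with a median of 0.06, and 16 were higher in side A, compared with 58.4% of all genes. In the list of lipid droplet and PPAR gamma genes 14 of 19 were higher, with a median of 0.10. None of the 19 separated within both diets, although the largest difference was 0.95. PPAR alpha is the nuclear receptor that responds to fatty acids in the fasted liver. Of its 25 measured target genes 24 had higher means in side A, compared with 58.4% of all genes, with a median of 0.10. Fgf21 alone separated, at 0.46 ± 0.09 (SE). After centring on array medians 20 of the 25 were higher with a median of 0.06, compared with 38.2% of all genes. Single mice moved the list. Without CD mouse 3 all 25 were higher with a median of 0.26 and 7 separated, compared with 12.1% of all genes, and without CD mouse 4 or PD mouse 2 it was 18 and 19, with medians of 0.08 and 0.05. Cpt1a and Cyp4a14 differed by 0.03 and 0.08. Cidea, a lipid droplet protein, ranged from 6.88 to 10.43 within side A alone, so its difference of 0.62 ± 0.90 (SE) was within the spread between mice.

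Of 19 sterol genes, Mvd and Fdft1, enzymes of cholesterol synthesis, separated within both diets at 0.24 and 0.20, a share near the 9.09% of all genes. In this list 16 were higher in side A, compared with 58.4% of all genes. The shares over all genes depended on the scaling. After centring each array on its median 2 of the 19 separated, compared with 4.12% of all genes, and 14 were higher, compared with 38.2%. Cyp7a1, the rate-limiting enzyme of bile acid synthesis, was 7.92, 9.52, 8.14 and 8.20 in side A and 7.67, 8.28, 8.37 and 7.46 in side B, a difference of 0.50 ± 0.45 (SE) that was not called. Nr0b2, the bile acid-induced repressor SHP, was higher in side A by 0.47 and separated. Abcg5, a hepatic sterol exporter, was 10.12 to 10.54 in side A and 10.56 to 10.83 in side B and differed by -0.28. Of 25 lipoprotein and bile acid genes 4 separated with side A higher and 1 with side A lower, compared with 9.09% and 3.13% of all genes. After centring on array medians 1 separated each way, compared with 4.12% and 7.68% of all genes.

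The other pathway lists, among them unfolded protein, p53, cell cycle and mitochondrial genes, had medians between -0.12 and 0.10. In the p53 list 14 of 18 genes were lower in side A, with a median of -0.12, whereas 58.4% of all genes were higher. None of the 18 separated within both diets in that direction and 1 did in the other. Of 8 measured hepatocyte markers, Alb had a mean log2 value of 14.73 and the others 12.12 to 14.54 except Trf at 6.99, and the median difference of the list was 0.00, and the marker lists other than macrophages had medians between -0.09 and 0.12.

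Each side held the diets equally, so the PD minus CD difference was the same with side in the model or without it. With side in the model, limma called 0 of 45037 probe sets (0%) between PD and CD mice at an adjusted p under 0.1, and the lowest adjusted p was 0.521. At an unadjusted p under 0.05 there were 2115 probe sets, compared with 1642 without side in the model, which also called 0. Where nothing differs, a share of about 0.05 of the 45037 probe sets reaches such a p, and neither count exceeded it. Because side was chosen on the same arrays, the spread left by a model that holds it is too small and the p-values are too low, which holds for the interaction of diet and side as well. The interaction, which asks whether the diet difference differed between the sides, gave 0 calls (0%) with these p-values, 2678 probe sets at an unadjusted p under 0.05 and a lowest adjusted p of 0.304. Leaving out CD mouse 3 gave 60 calls in the interaction test. The interaction of Saa2 was 2.53 ± 2.18 (SE) with a limma adjusted p of 0.872. In side A the Saa2 values of both diets lay between 8.03 and 8.91, and in side B CD mouse 4 stood at 13.95.

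Control probe sets, which did not enter the choice of the sides, were compared by a two-sided exact permutation test over the 4 mice of each side. Of 67 control measures, 5 reached the smallest p that the design allows, 0.0286, and the lowest adjusted p over the family was 0.383. They included a hybridization control, BioB-M, at 9.68 ± 0.05 in side A and 9.78 ± 0.05 in side B (SD), a difference of -0.10, and the ratio of 3′ to 5′ signal of Gapdh, a measure of RNA integrity, at 0.12 ± 0.01 and 0.16 ± 0.01 (SD, log2 scale). The same ratios of Actb and Pcx differed by -0.01 and -0.003, with exact permutation p of 0.4 and 0.971. The largest difference among the 67 was 0.19.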

How the data were processed

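Liver RNA of 8 mice was labelled from total RNA and hybridized, 1 mouse per array, to Affymetrix mouse arrays. The deposited values are log2 expression values that the authors made with R 2.7.2, per the labels, as 1 model-based expression index per probe set. The scaling between arrays is not stated there, and the values were used as deposited. Depth does not apply to arrays, and the number of arrays, 4 a side, limits the precision. Of 45037 probe sets, after 64 controls were set aside, 34945 carried 1 gene symbol in the platform annotation, 932 several and 9160 none. In the lists and in counts over genes a gene was represented by its brightest probe set. The genes of largest called difference were represented by their brightest called probe set, so a brighter one may not be called, as for Car3. Sides were compared by least squares with diet as covariate. Named genes were the 12 of largest called difference in each direction, called members of the lists and a fixed set of clock, feeding, lipid and immune genes. Some genes of that set are not reported here. The sides, the 25 pathway lists and the 15 marker lists were chosen with earlier results of these data known. Diet and interaction were tested with limma 3.58.1 in R 4.3.3 with Benjamini-Hochberg adjustment, and controls by exact permutation. The scripts were tested on simulated data. Replicates are separate mice per the labels. Same-numbered CD and PD mice had deviations that correlated between -0.06 and 0.00. They lie on opposite sides of the split, which lowers these correlations, so the values cannot tell whether the numbers mark pairs. The labels name no pairing, and the numbers were not used as pairs. Alternatives covered quantile normalization, median centring, an offset of 16, a filter on dim probe sets, a replicate block and each mouse left out.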

Additional observations from a re-analysis of the deposited data

Results flagged for a closer look

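In 12 of 204 sets of 4 mice examined, 1 mouse lay far from the other 3 of its side by Dixon's gap ratio. Chance gives about 1 in 20. CD mouse 1 was apart in side A for Dbp (0.921), Nr1d2 (0.921), Arntl (0.899), Tef (0.857) and Clock (0.839). CD mouse 4 was apart in side B for Itpa (0.988), Efcab9 (0.909), Cpt1a (0.904) and Pck1 (0.88). PD mouse 2 was apart in side B for Car3 (0.917), Amn1 (0.88) and Cry1 (0.84).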

How the results depend on the processing

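The probe sets called higher in side A numbered 4 and those called lower 11 at a difference of 1.0, compared with 69 and 21 at 0.5. They numbered 50 to 63 and 16 to 23 under quantile normalization, median centring, the offset of 16, the filter on dim probe sets and without shared probe sets, and 61 to 98 and 17 to 36 as each mouse was left out, the most lower calls coming without CD mouse 3 or PD mouse 4 (36 each) and PD mouse 2 (33). With the replicate block they numbered 80 and 26, and the block called 8 probe sets between the diets, with side also in the model. By the labels the same-numbered mice share only a number. Alternatives chosen after seeing the data changed the counts of genes separated within both diets of any size, 1654 higher and 570 lower. Higher genes numbered 1045 after quantile normalization, 749 after median centring and 893 among bright probe sets, and lower genes 1398 after median centring, so the larger number of higher genes turned with centring. The median of the macrophage list was -0.30 after median centring and -0.32 to -0.20 as each mouse was left out, and that of the unfolded protein list, -0.04 with all mice, -0.0545 to 0.0133. The control measures at the smallest p numbered 8 when labels were permuted within diets (smallest p 0.0556), 12 after median centring and 2 to 8 as each mouse was left out. Diet calls with side in the model ranged from 0 to 1 and interaction calls from 0 to 60 as each mouse was left out, which leaves 1 mouse in an arm that is assumed to vary like the others. With 4 mice a side, differences within the spread between mice were not detectable.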
